A study of Homo sapiens with 15 samples.

Results

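Fc receptors are the proteins that grip the constant part, the Fc, of an antibody. The 8 genes described are FCGR1A, FCGR2A, FCGR2B, FCGR3A, FCER1G, FCAR, FCGRT and TRIM21, taken by gene symbol from the expression table of Molm-13 cells. They are 8 of the 20375 genes in that table, and each has 1 entry. All 8 were among the 12356 genes tested. Molm-13 is an established human cell line from acute myeloid leukemia of monocytic type, with an internal tandem duplication in the receptor tyrosine kinase gene FLT3. One of the drugs given, FL-Fc-DM1, has Fc in its name.

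On myeloid cells, receptors for the Fc of IgG clear antibody-coated particles and start inflammatory signalling. FCGR1A encodes the high-affinity IgG receptor CD64, FCGR2A and FCGR3A encode lower-affinity activating receptors, and FCGR2B encodes the inhibitory one. Activating receptors signal through ITAM motifs, which Src-family kinases phosphorylate and which then recruit the kinase SYK. FCGR2A carries its own ITAM, whereas FCGR1A, FCGR3A and the IgA receptor FCAR borrow that of the common gamma chain FCER1G. FCGR2B carries an ITIM, which recruits the lipid phosphatase encoded by INPP5D. FCGRT and TRIM21 act inside the cell: FCGRT is the heavy chain of the neonatal Fc receptor, which pairs with B2M and holds IgG in acidic endosomes so that it is recycled, and TRIM21 is a ubiquitin ligase that binds antibody in the cytosol.

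The 15 libraries were made from poly(A) RNA of Molm-13 cells, labelled wild type and cultured for 4 days, and form 5 groups of 3. A pair of groups was exposed for 3 days to 1 or 0.5 µM of cytarabine, a cytidine analog that stops DNA chain growth, and afterwards for 24 hours to FL-Fc-DM1 at 1 nM with the cytarabine removed. Another pair received cytarabine at 1 or 0.5 µM for 4 days, and the control group received no drug. An FL-Fc-DM1 group therefore differs from its cytarabine group both by the added agent and by the withdrawal of cytarabine. Every change credited below to FL-Fc-DM1 against cytarabine holds both, and they cannot be told apart. The name FL-Fc-DM1 is not explained in the labels. FL commonly stands for FLT3 ligand, Fc for the constant part of an antibody, and DM1 for mertansine, which belongs to the tubulin-binding maytansinoids. For the groups given FL-Fc-DM1, the treatment protocol names a different monocytic line, THP-1, while titles, cell line label and design name Molm-13. The labels do not tell whether the 3 libraries of each group were grown separately, so p-values measure the spread between these libraries, which may be technical.

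Libraries held 10.9 to 17.0 M estimated counts. The mitochondrial share of counts was 6.23% to 6.79% in treated libraries and 4.50% to 4.75% in control libraries. Of 20 markers of myeloid blasts and monocytes, 19 averaged at least 1 CPM (counts scaled to a common library size) in each treated group and 14 in control. Their summed level was 15914 to 16365 CPM after cytarabine 1 µM then FL-Fc-DM1 and 18156 to 18898 CPM after cytarabine 0.5 µM then FL-Fc-DM1. It was 9095 to 9311 CPM in cytarabine 1 µM, 11186 to 11683 CPM in cytarabine 0.5 µM and 1705 to 1749 CPM in control. LYZ made up most of the treated sums, at 13660, 15420, 6597 and 8624 CPM in that order, against 379 CPM in control. By the test described below, 13 of 14 markers measurable in control libraries rose and 1, MPO, fell at each cytarabine dose. Over all genes 38.0% to 39.3% rose and 35.2% to 36.6% fell. FL-Fc-DM1 raised 10 and lowered 4 of 19 tested markers after each dose. Over all genes it raised 22.0% to 23.5% and lowered 22.2% to 22.8%. The summed level moved with most of the receptors below, and the part of these markers in the receptor changes was not tested. In bulk RNA, a larger share of monocyte-like cells and more RNA per cell cannot be told apart. Of 12 neutrophil markers, 3 reached 1 CPM in each treated group and 2 in control, and CEACAM8, MMP8 and ALPL were at 0 in every group. Their sum was 221 to 239, 268 to 284, 268 to 287 and 305 to 322 CPM in the treated groups in the same order, against 125 to 135 CPM in control, carried by CSF3R and CXCR2. Of 15 markers of NK and T cells, 6 reached 1 CPM in each treated group and 4 in control, with summed levels of 76.2 to 101.6 CPM in treated and 77.1 to 79.6 CPM in control libraries, and NCR1 was at 0. Markers of B cells summed to 0.735 to 2.59 CPM in treated and 3.72 to 4.00 CPM in control libraries. Of 10 markers of mast cells and basophils, 5 reached 1 CPM in each treated group and 3 in control, with sums of 107 to 120.0, 65.1 to 68.8, 75.4 to 86.2 and 63.5 to 65.8 CPM in the treated groups in that order, against 48.3 to 51.0 CPM in control. Of 12 dendritic cell markers, 6 to 8 reached 1 CPM in treated groups and 4 in control, with sums of 751 to 934 CPM in treated and 646 to 661 CPM in control libraries. The 9 markers of platelets summed to 5.93 to 11.5 CPM in treated and 3.15 to 4.15 CPM in control libraries, and 10 of stroma and epithelium, led by PECAM1, to 249 to 322 CPM in treated and 98.6 to 105 CPM in control libraries. The part of these lists in the receptor changes was not tested either.

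Promoter sequence was read from RefSeq windows of 300 bases on GRCh38.p14, with 250 bases before each annotated transcript start and 50 from the start on. The table held 12 windows for 7 of the 8 genes. Positions are counted from the start, which is 0. The 4 stretches printed are those that hold the STAT-type motif, the interferon-type motif of TRIM21 or the run shared by a pair of receptors, with motif matches in capitals. They run 5′ to 3′ on the strand of the gene. FCGR1A lies at chr1:149782574-149782693 (plus strand), FCGR2A at chr1:161505337-161505456 (plus strand), the second start of FCGR2B at chr1:161662993-161663132 (plus strand) and TRIM21 at chr11:4393663-4393692 (minus strand).
FCGR1A: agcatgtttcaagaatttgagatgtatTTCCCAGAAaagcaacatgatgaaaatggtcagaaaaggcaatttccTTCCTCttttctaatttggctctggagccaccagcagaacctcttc
FCGR2A: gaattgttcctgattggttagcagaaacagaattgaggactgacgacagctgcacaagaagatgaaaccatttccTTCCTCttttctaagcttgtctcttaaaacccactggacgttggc
FCGR2B: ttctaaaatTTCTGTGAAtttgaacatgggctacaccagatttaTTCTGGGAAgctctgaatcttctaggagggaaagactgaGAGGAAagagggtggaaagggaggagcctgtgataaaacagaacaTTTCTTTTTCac
TRIM21: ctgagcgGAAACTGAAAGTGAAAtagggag

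Motifs were searched on both strands as TTCNNNGAA, a STAT-type site, GAGGAA, the core of the myeloid factor PU.1, and GAAA, any 2 bases and GAAA again, the core of an interferon-stimulated response element. Of 35116 promoter windows, 7.66% held the first, 27.9% the second and 3.57% the third. FCGR1A held a STAT-type match from −93 to −85 and a PU.1-type match from −46 to −41. FCGR2A held 1 match, of PU.1 type, from −45 to −40. FCGR1A and FCGR2A share the run ATTTCCTTCCTCTTTTCTAA, 20 bases that include the PU.1-type match and that occur in 2 of the 35116 windows, those of these 2 genes. The second start of FCGR2B held STAT-type matches from −141 to −133 and from −106 to −98. It also held an interferon-type match from −22 to −13 and PU.1-type matches from −180 to −175 and from −67 to −62. TRIM21 held interferon-type matches from 17 to 26 and from 23 to 32, which overlap each other, and a PU.1-type match from −8 to −3. The PU.1-type match of FCGRT lay from 11 to 16, and that of the fifth start of FCGR3A from 6 to 11 with an interferon-type match from −52 to −43. No match of these letters was in the window of FCER1G, in that of the first start of FCGR2B or in those of the other starts of FCGR3A.

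**Figure D1:**
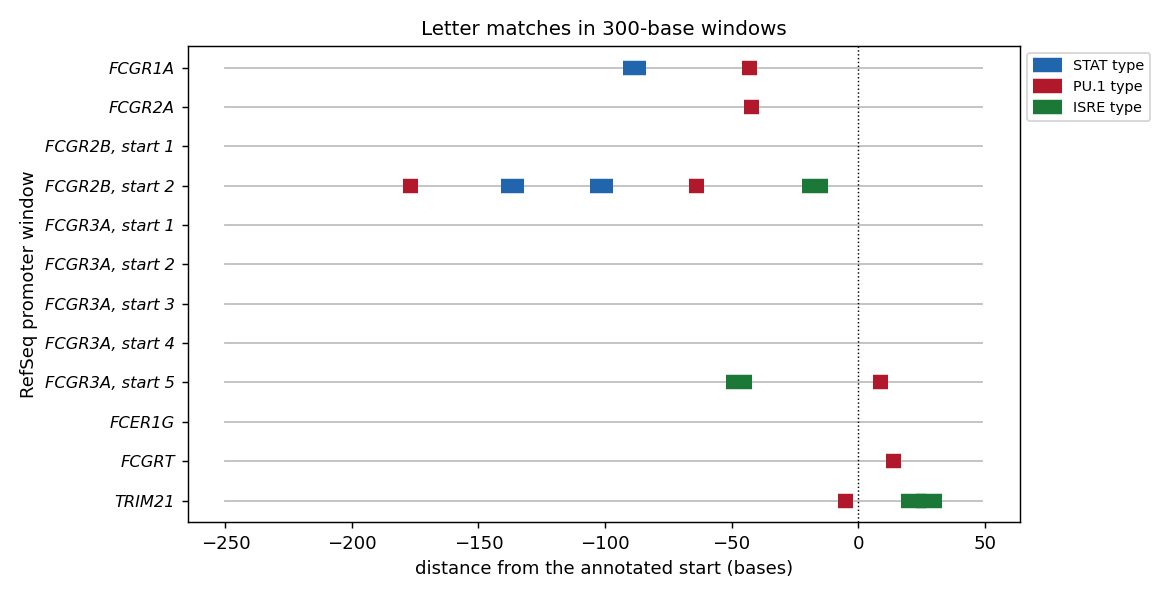
Motif matches in the promoter windows of 7 Fc receptor genes, with distance from the transcript start in bases on the x axis and 1 line per annotated start. Markers show the STAT-type, PU.1-type and interferon-type matches. FCGR1A and FCGR2A have a PU.1-type match at −46 and −45, and the second start of FCGR2B has matches of all 3 types.

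Cytarabine raised most of the Fc receptor genes that were measurable in control. A gene counted as called where edgeR's quasi-likelihood test over all genes gave it a Benjamini-Hochberg adjusted p below 0.05. FCGR3A, FCER1G and FCAR reached the filter's level of 0.768 CPM in at most 1 of 3 control libraries, passed it through treated libraries and are described on their own. Of the 5 other genes, 4 rose and 1 fell in cytarabine 1 µM against control, where 39.3% of all tested genes were called higher and 36.6% lower. All 5 rose in cytarabine 0.5 µM, where 38.0% were called higher and 35.2% lower. With calls this frequent in both directions, the sizes say more than the counts: the median change of the 5 was 1.83 in cytarabine 1 µM and 1.82 in cytarabine 0.5 µM on the log2 scale, against 0.03 over all tested genes in each. Both comparisons share the control libraries.

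FL-Fc-DM1 after cytarabine, with the cytarabine withdrawn, came with smaller rises and no called fall among the 8 genes. After 1 µM, 5 rose and 3 were not called, where 23.5% of all genes were called higher and 22.2% lower. After 0.5 µM, 6 rose and 2 were not called, where 22.0% were called higher and 22.8% lower. The median change of the 8 was 0.35 after 1 µM and 0.39 after 0.5 µM, against −0.00 and −0.02 over all genes. FCGR2A, FCGR2B, FCER1G, FCAR and FCGRT were called in both. The test of whether this change differed between the doses called 0 of the 8, where 3.07% of all genes were called. At an unadjusted p under 0.05 it gave 2, FCGR1A and FCGR2A, and DESeq2 called 1, FCGR1A. Limma called 0 both on log2 TPM and with voom.

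The dose of cytarabine split some of the genes. In cytarabine 1 µM against 0.5 µM, FCGR3A and FCGRT were called higher, FCGR1A and FCAR lower, and 4 were not called. Over all genes 9.08% were called higher and 10.3% lower. In FL-Fc-DM1 after 1 µM against after 0.5 µM, FCGR2A, FCGR3A and FCGRT were called higher, FCGR1A and FCAR lower, and 3 were not called. Over all genes 14.3% were called higher and 14.0% lower. Against control, of the 5 genes at the filter's level there, 4 were called higher and 0 lower in FL-Fc-DM1 after 1 µM, with 35.8% of all genes called higher and 35.4% lower. FL-Fc-DM1 after 0.5 µM had 5 higher and 0 lower, with 35.0% of all genes called higher and 34.2% lower. The median change of the 5 was 2.15 and 1.93 in these comparisons, in that order, against 0.01 and 0.02 over all genes.

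**Figure D2:**
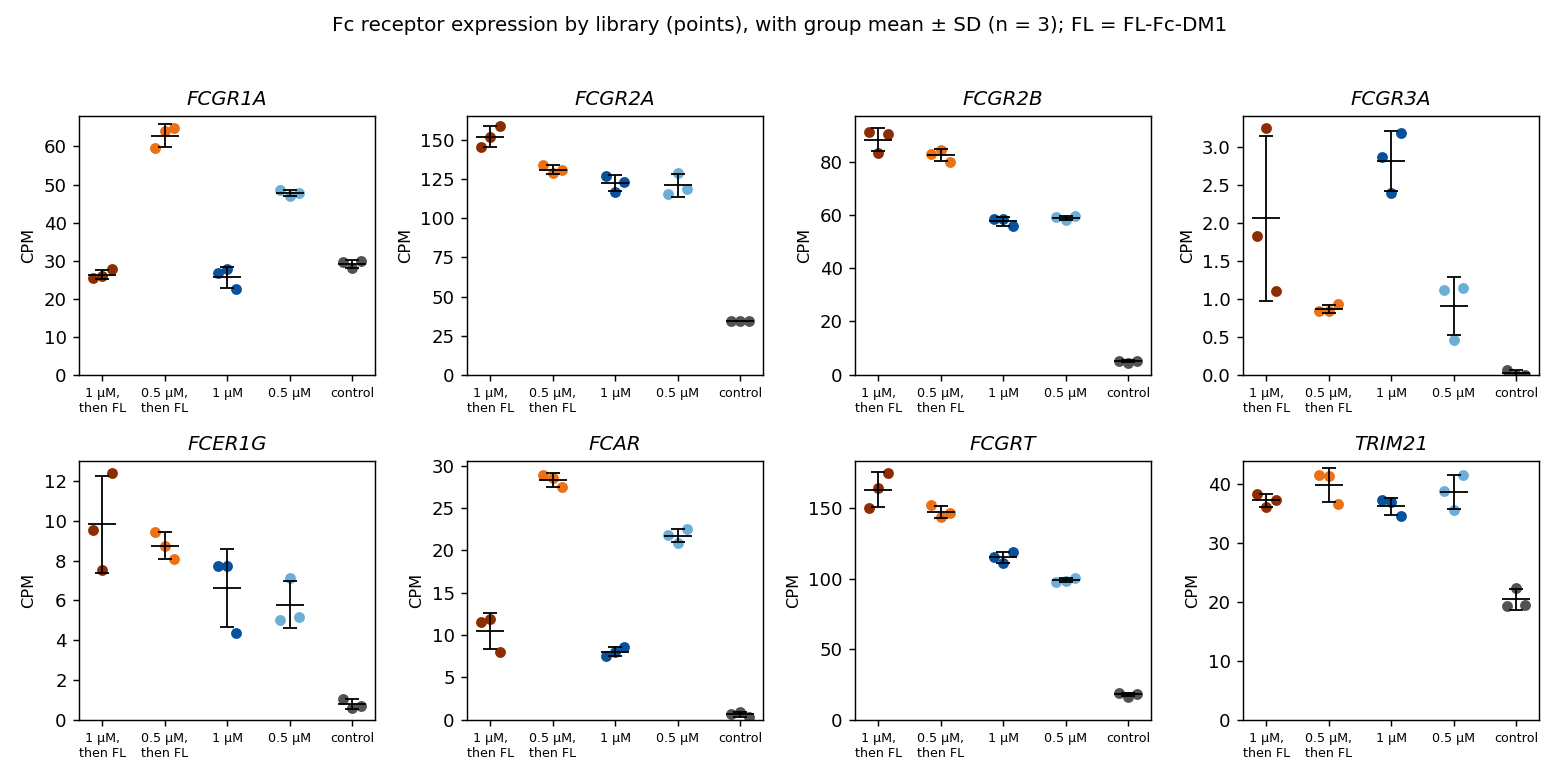
CPM of the 8 Fc receptor genes in every library, with 1 panel per gene, a linear y axis from 0 that differs between panels, points for libraries and bars for the mean ± SD of 3. All points of FCGR2A, FCGR2B, FCGRT and TRIM21 in treated groups lie above control, while FCGR1A in cytarabine 1 µM and in FL-Fc-DM1 after 1 µM lies below control.

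FCGR1A moved in opposite directions at the cytarabine doses. Its level was 25.3, 25.8 and 27.7 CPM in cytarabine 1 µM then FL-Fc-DM1, and 59.5, 64.1 and 65.0 CPM in cytarabine 0.5 µM then FL-Fc-DM1. It was 26.7, 27.7 and 22.5 CPM in cytarabine 1 µM, 48.4, 47.1 and 47.8 CPM in cytarabine 0.5 µM, and 29.7, 27.9 and 29.8 CPM in control. Both groups at 0.5 µM lay above every control library, and both groups at 1 µM lay below every control library. Cytarabine 0.5 µM raised it by 0.71 ± 0.0695 (log2 fold change ± SE, 95% interval 0.57 to 0.86, edgeR adjusted p = 9.21e-10). In cytarabine 1 µM it was slightly lower, with a change of −0.18 ± 0.0746 (−0.34 to −0.03, edgeR adjusted p = 0.0288). That small fall was not called without control library 1 (−0.17, edgeR adjusted p = 0.0726), without control library 3 (−0.17, edgeR adjusted p = 0.0762) or without cytarabine 1 µM library 3 (−0.10, edgeR adjusted p = 0.203). The test between the doses themselves gave −0.90 ± 0.0719 for 1 µM minus 0.5 µM (−1.04 to −0.75, edgeR adjusted p = 1.10e-09).

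FL-Fc-DM1 after 0.5 µM raised FCGR1A by a further 0.40 ± 0.0657 (0.26 to 0.53, edgeR adjusted p = 2.08e-05). After 1 µM the change was 0.03 ± 0.0793 (−0.13 to 0.20, edgeR adjusted p = 0.768). The difference of these changes, 1 µM minus 0.5 µM, was −0.36 ± 0.103 with an interval of −0.58 to −0.15 and an edgeR adjusted p of 0.0509, just outside the threshold. It passed in 6 of 20 alternatives, with edgeR or DESeq2 adjusted p from 0.00997 to 0.0481, and stayed uncalled in the other 14. Among the 6 were the fits without cytarabine 1 µM library 3 (−0.45), without FL-Fc-DM1 after 1 µM library 3 (−0.41) and without FL-Fc-DM1 after 0.5 µM library 1 (−0.42). The groups that had FL-Fc-DM1 differed by −1.26 ± 0.0724 (−1.41 to −1.11, edgeR adjusted p = 7.91e-13). Against control, FL-Fc-DM1 after 1 µM stood at −0.15 ± 0.0768 (−0.31 to 0.01, edgeR adjusted p = 0.0807), and without its library 3 at −0.20 (edgeR adjusted p = 0.0394). FL-Fc-DM1 after 0.5 µM stood 1.11 above control. The histone gene H2BC18 lies over FCGR1A on the opposite strand, and the sources used here do not give the strand setting of the counting. H2BC18 had 0 to 29 counts per library against 276 to 914 for FCGR1A. FCGR1BP, a near-identical copy of FCGR1A, had no entry under that symbol, so its reads could not be followed.

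FCGR2A, the activating receptor with its own ITAM, rose under every treatment. It had 146, 152 and 159 CPM in cytarabine 1 µM then FL-Fc-DM1, and 134, 129 and 131 CPM in cytarabine 0.5 µM then FL-Fc-DM1. It had 127, 117 and 123 CPM in cytarabine 1 µM, 115, 129 and 119 CPM in cytarabine 0.5 µM, and 34.3, 34.5 and 34.4 CPM in control. No treated library overlapped the controls, and the cytarabine doses overlapped each other. The change was 1.83 ± 0.0533 in cytarabine 1 µM (1.72 to 1.94, edgeR adjusted p = 7.59e-21) and 1.82 ± 0.0535 in cytarabine 0.5 µM (1.71 to 1.93, edgeR adjusted p = 1.17e-20). The difference between those doses was 0.02, with an interval of −0.08 to 0.11. FL-Fc-DM1 after 1 µM added 0.31 ± 0.0467 (0.22 to 0.41, edgeR adjusted p = 5.30e-06). After 0.5 µM the added 0.11 ± 0.0470 (0.02 to 0.21, edgeR adjusted p = 0.0488) lay at the threshold. That call was lost without cytarabine 0.5 µM library 1 (0.10) or 3 (0.12) and without FL-Fc-DM1 after 0.5 µM library 1 (0.11) or 3 (0.13), with adjusted p from 0.0520 to 0.145. The difference of these changes was 0.20 ± 0.0662 (0.06 to 0.33, edgeR adjusted p = 0.117).

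FCGR2B, the inhibitory receptor, rose more than FCGR2A. It had 91.2, 83.2 and 90.4 CPM in cytarabine 1 µM then FL-Fc-DM1, and 82.9, 84.6 and 80.0 CPM in cytarabine 0.5 µM then FL-Fc-DM1. It had 58.6, 58.6 and 55.7 CPM in cytarabine 1 µM, 59.0, 58.0 and 59.5 CPM in cytarabine 0.5 µM, and 5.19, 4.51 and 5.29 CPM in control. The groups fell into 3 levels without overlap: both FL-Fc-DM1 groups, both cytarabine groups, and control. Cytarabine raised FCGR2B by 3.52 ± 0.0781 at 1 µM (3.36 to 3.68, edgeR adjusted p = 2.23e-23) and by 3.55 ± 0.0782 at 0.5 µM (3.39 to 3.71, edgeR adjusted p = 2.26e-23). FL-Fc-DM1 added 0.61 ± 0.0532 after 1 µM (0.50 to 0.72, edgeR adjusted p = 7.43e-10) and 0.49 ± 0.0529 after 0.5 µM (0.38 to 0.60, edgeR adjusted p = 4.08e-08). The difference between cytarabine doses was −0.03 (−0.14 to 0.08), and that between the FL-Fc-DM1 groups 0.10 (−0.01 to 0.21), neither of them called.

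Because FCGR2A and FCGR2B are near-identical over long stretches, their reads can be divided between them. In 8 of 15 libraries the FCGR2A count was not a whole number, and in these 8 the sum of FCGR2A and FCGR2B was whole, both within a tolerance of 0.001. FCGR2C, another near-identical copy, had no entry under that symbol, so its reads could not be followed. The sum of both genes rose by 2.19 ± 0.0441 in cytarabine 1 µM and by 2.19 ± 0.0442 in cytarabine 0.5 µM. FL-Fc-DM1 added 0.42 ± 0.0377 to the sum after 1 µM (edgeR adjusted p = 1.68e-09) and 0.25 ± 0.0378 after 0.5 µM (edgeR adjusted p = 7.10e-06). The rise of the pair therefore does not depend on how reads were divided between FCGR2A and FCGR2B, while the ratio between them can.

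That ratio, FCGR2B over FCGR2A in TPM (transcript abundance corrected for gene length), was 0.796, 0.667 and 0.676 in cytarabine 1 µM then FL-Fc-DM1, and 0.751, 0.792 and 0.732 in cytarabine 0.5 µM then FL-Fc-DM1. It was 0.560, 0.644 and 0.558 in cytarabine 1 µM, 0.634, 0.563 and 0.620 in cytarabine 0.5 µM, and 0.180, 0.160 and 0.157 in control. The inhibitory transcript was thus 0.166 ± 0.0122 of the activating one in control (SD, n = 3) and at least 0.558 of it in every treated library. Neither cytarabine group overlapped control, and neither FL-Fc-DM1 group overlapped its cytarabine group. Each of these 4 comparisons had a two-sided exact permutation p of 0.1, the smallest that 3 against 3 libraries can give. Cytarabine 1 µM against 0.5 µM gave an exact permutation p of 0.8, and FL-Fc-DM1 after 1 µM against after 0.5 µM gave 0.4.

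FCGR3A, the activating receptor of NK cells and of some monocytes, stayed rare. It had 1.83, 3.24 and 1.10 CPM in cytarabine 1 µM then FL-Fc-DM1, and 0.836, 0.832 and 0.924 CPM in cytarabine 0.5 µM then FL-Fc-DM1. It had 2.86, 2.40 and 3.18 CPM in cytarabine 1 µM, 1.11, 0.462 and 1.14 CPM in cytarabine 0.5 µM, and 0.0617, 0 and 0 CPM in control. All treated libraries lay above control, where 1 count was found over 3 libraries. With 116 counts in cytarabine 1 µM, the ratio to control was 133, with an exact 95% counting interval of 23.5 to 5317. The ratio was 42.7 (7.19 to 1734) from 36 counts in cytarabine 0.5 µM, 97.9 (17.0 to 3921) from 69 counts in FL-Fc-DM1 after 1 µM and 40.2 (6.74 to 1637) from 33 counts in FL-Fc-DM1 after 0.5 µM. These intervals cover counting error only: amplified reads carry no molecular identifiers here and are not independent molecules. FCGR3A passed the filter through its treated libraries, so these intervals are no test of a rise over control.

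Among the drug groups FCGR3A was higher in cytarabine 1 µM than in 0.5 µM by 1.62 ± 0.410 (0.78 to 2.47, edgeR adjusted p = 0.00579). FL-Fc-DM1 after 1 µM changed it by −0.44 ± 0.377 (−1.22 to 0.33, edgeR adjusted p = 0.355) and after 0.5 µM by −0.07 ± 0.473 (−1.04 to 0.91, edgeR adjusted p = 0.921). At this depth neither change was detectable. FL-Fc-DM1 after 1 µM stood 1.25 ± 0.435 above FL-Fc-DM1 after 0.5 µM (0.35 to 2.14, edgeR adjusted p = 0.0331), but 0.75 (edgeR adjusted p = 0.258) without library 2 of the 1 µM group. That call was also lost without any 1 of the 3 libraries of FL-Fc-DM1 after 0.5 µM, at 1.20 to 1.30 with edgeR adjusted p from 0.0763 to 0.0911. FCGR3B, the near-identical neutrophil copy, had 0 to 4 counts per library and was not tested. In library 2 of FL-Fc-DM1 after 1 µM the counts of FCGR3A and FCGR3B were 36.87 and 2.13.

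Summed over the 4 IgG receptors, the level was 289 ± 11.4 TPM in cytarabine 1 µM then FL-Fc-DM1 and 309 ± 3.90 TPM in cytarabine 0.5 µM then FL-Fc-DM1 (SD, n = 3 each). It was 228 ± 8.73 TPM in cytarabine 1 µM, 253 ± 3.74 TPM in cytarabine 0.5 µM and 82.5 ± 2.01 TPM in control. FCGR1A made up 13.7%, 29.4%, 17.3% and 28.1% of that sum in the treated groups in that order, against 51.5% in control. FCGR2B made up 35.6%, 30.3%, 30.0% and 27.0%, against 6.89% in control. FCGR2A made up 50.04%, 40.03%, 51.3% and 44.6%, against 41.6% in control. The share of FCGR1A was thus lower and that of FCGR2B higher in every treated group than in control, while that of FCGR2A had no one direction and FCGR3A held at most 1.30%.

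**Figure D3:**
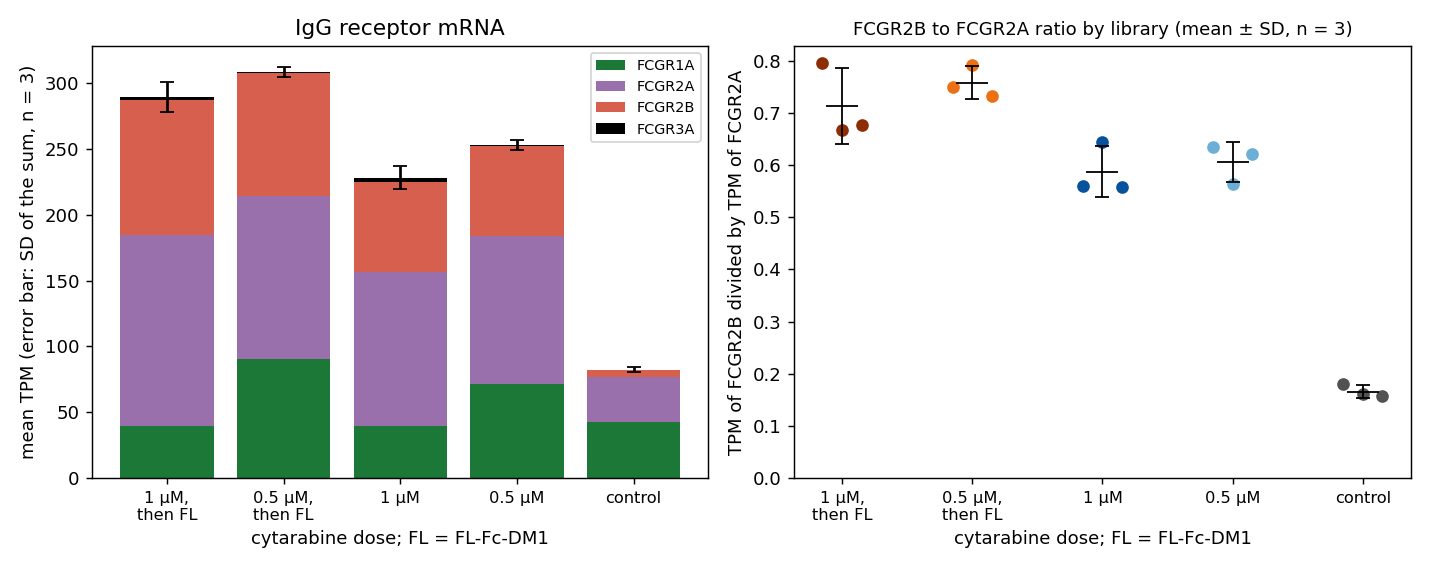
Mean TPM of the 4 IgG receptor genes stacked by group, with the SD of their sum as error bar (left), and the FCGR2B over FCGR2A ratio of TPM in every library with the mean ± SD of 3 (right). FCGR1A is the largest of the 4 in control and FCGR2A in every treated group, and the ratio is 0.157 to 0.180 in control and 0.558 to 0.796 in treated libraries.

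FCER1G, the gamma chain that FCGR1A, FCGR3A and FCAR need for signalling, was low in control and higher in every treated group. It had 9.53, 7.54 and 12.4 CPM in cytarabine 1 µM then FL-Fc-DM1, and 9.44, 8.73 and 8.11 CPM in cytarabine 0.5 µM then FL-Fc-DM1. It had 7.76, 7.75 and 4.35 CPM in cytarabine 1 µM, 5.04, 7.15 and 5.19 CPM in cytarabine 0.5 µM, and 1.05, 0.573 and 0.706 CPM in control. No treated library overlapped control, the cytarabine groups overlapped each other, and so did the FL-Fc-DM1 groups. Relative to control it stood at 3.07 ± 0.289 in cytarabine 1 µM (2.47 to 3.67) and 2.87 ± 0.296 in cytarabine 0.5 µM (2.26 to 3.48). No p is given because the gene entered the test through its treated libraries. For the same reason these intervals are no test of a rise over control. FL-Fc-DM1 added 0.56 ± 0.206 after 1 µM (0.14 to 0.99, edgeR adjusted p = 0.0287) and 0.59 ± 0.210 after 0.5 µM (0.16 to 1.03, edgeR adjusted p = 0.0236). Both added rises rested on few counts. The first was 0.34 (edgeR adjusted p = 0.172) without library 3 of cytarabine 1 µM and 0.37 (edgeR adjusted p = 0.180) without library 3 of its FL-Fc-DM1 group. The second was not called without library 1 (0.52) or 3 (0.54) of cytarabine 0.5 µM or library 1 of its FL-Fc-DM1 group (0.55), with edgeR adjusted p from 0.0738 to 0.0900.

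Per length, FCER1G remained below its partner FCGR1A in every group on average. The FCER1G over FCGR1A ratio in TPM was 0.767 ± 0.149 in cytarabine 1 µM then FL-Fc-DM1, 0.294 ± 0.0390 in cytarabine 0.5 µM then FL-Fc-DM1, 0.516 ± 0.114 in cytarabine 1 µM, 0.252 ± 0.0535 in cytarabine 0.5 µM and 0.0571 ± 0.0167 in control (SD, n = 3 each). No p is given for this ratio against control, because FCER1G entered the test through its treated libraries. The other ITAM adaptor of these cells, TYROBP, was far more abundant: its TPM was 19.5 ± 4.00, 21.2 ± 2.36, 28.2 ± 12.5 and 27.7 ± 5.23 times that of FCER1G in the treated groups in the same order, against 51.7 ± 15.7 times in control. TYROBP had 166, 171 and 192 CPM in cytarabine 1 µM then FL-Fc-DM1, 175, 168 and 184 CPM in cytarabine 0.5 µM then FL-Fc-DM1, 158, 150.4 and 175 CPM in cytarabine 1 µM, 149, 148 and 149 CPM in cytarabine 0.5 µM, and 33.8, 35.0 and 37.3 CPM in control. It rose by 2.19 in cytarabine 1 µM (edgeR adjusted p = 4.19e-21) and by 2.07 in cytarabine 0.5 µM (edgeR adjusted p = 1.92e-20).

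Receptors known or thought to use an ITAM adaptor were followed as a list of 14, of which 8 were tested and 4 of these reached the filter's level in all control libraries. Of those 4, 1 rose and 3 fell in cytarabine 1 µM against control (median −0.86), and 1 rose and 2 fell in cytarabine 0.5 µM (median −0.27). Over all genes 39.3% rose and 36.6% fell at 1 µM, and 38.0% rose and 35.2% fell at 0.5 µM. OSCAR, a collagen receptor that signals through FCER1G, rose by 2.26 in cytarabine 1 µM and by 2.35 in cytarabine 0.5 µM, and LILRA2 changed by −0.72 and −0.26. CLEC5A, which signals mainly through TYROBP, was below that level in all 3 control libraries, and FL-Fc-DM1 raised it by 2.66 after 1 µM and by 2.26 after 0.5 µM. OSCAR fell with FL-Fc-DM1, with changes of −0.36 after 1 µM and −0.33 after 0.5 µM, and LILRA2 rose by 0.34 and 0.37. In those comparisons 3 of the 8 rose and 1 fell after 1 µM (median 0.15), and 2 rose and 1 fell after 0.5 µM (median 0.44). Over all genes 23.5% rose and 22.2% fell after 1 µM, and 22.0% rose and 22.8% fell after 0.5 µM.

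FCAR, the receptor for IgA, was close to absent in control. It had 11.5, 11.9 and 7.99 CPM in cytarabine 1 µM then FL-Fc-DM1, and 28.9, 28.6 and 27.4 CPM in cytarabine 0.5 µM then FL-Fc-DM1. It had 7.50, 7.99 and 8.62 CPM in cytarabine 1 µM, 21.8, 20.9 and 22.5 CPM in cytarabine 0.5 µM, and 0.741, 0.931 and 0.353 CPM in control. The 0.5 µM groups lay above both 1 µM groups, which overlapped each other and lay above control. Relative to control it stood at 3.59 ± 0.226 in cytarabine 1 µM (3.12 to 4.05) and 5.03 ± 0.195 in cytarabine 0.5 µM (4.62 to 5.43). These too are given with no p, for the same reason as FCER1G, and the intervals are no test against control. FL-Fc-DM1 added 0.39 ± 0.144 after 1 µM (0.09 to 0.69, edgeR adjusted p = 0.0299) and 0.38 ± 0.114 after 0.5 µM (0.15 to 0.62, edgeR adjusted p = 0.00810). The first of these was not called without cytarabine 1 µM library 1 (0.34) or without library 1 (0.32) or 2 (0.30) of its FL-Fc-DM1 group, with edgeR adjusted p from 0.0988 to 0.130. FCAR and FCGR1A were the only members of the 8 called lower at the higher dose in both comparisons of doses. For FCAR the difference between the FL-Fc-DM1 groups was −1.43 ± 0.127 (−1.69 to −1.17, edgeR adjusted p = 3.00e-09).

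FCGRT, the heavy chain of the neonatal Fc receptor, became the most abundant of the 8 transcripts per length. It had 150.2, 164 and 175 CPM in cytarabine 1 µM then FL-Fc-DM1, and 152, 144 and 146 CPM in cytarabine 0.5 µM then FL-Fc-DM1. It had 115, 111 and 119 CPM in cytarabine 1 µM, 97.7, 98.2 and 100.4 CPM in cytarabine 0.5 µM, and 18.9, 16.4 and 18.6 CPM in control. The FL-Fc-DM1 groups lay above cytarabine 1 µM, that above cytarabine 0.5 µM, and that above control, with overlap only between the FL-Fc-DM1 groups. Cytarabine raised FCGRT by 2.67 ± 0.0628 at 1 µM (2.54 to 2.80, edgeR adjusted p = 7.23e-23) and by 2.45 ± 0.0639 at 0.5 µM (2.32 to 2.59, edgeR adjusted p = 7.55e-22). FL-Fc-DM1 added 0.50 ± 0.0496 after 1 µM (0.40 to 0.60, edgeR adjusted p = 7.50e-09) and 0.58 ± 0.0503 after 0.5 µM (0.47 to 0.68, edgeR adjusted p = 9.15e-10). Cytarabine 1 µM stood 0.22 ± 0.0510 above 0.5 µM (0.12 to 0.33, edgeR adjusted p = 0.00282). The FL-Fc-DM1 groups differed by 0.14 ± 0.0489 (0.04 to 0.25, edgeR adjusted p = 0.0282), a call that was lost without any 1 of 5 of their 6 libraries. Without libraries 1, 2 and 3 of FL-Fc-DM1 after 0.5 µM the difference was 0.15, 0.11 and 0.14, and without libraries 2 and 3 of FL-Fc-DM1 after 1 µM it was 0.14 and 0.09, with edgeR adjusted p from 0.0506 to 0.177.

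B2M, the light chain that FCGRT pairs with, moved much less. It had 1594, 1582 and 1563 CPM in cytarabine 1 µM then FL-Fc-DM1, 1564, 1547 and 1632 CPM in cytarabine 0.5 µM then FL-Fc-DM1, 1365, 1394 and 1375 CPM in cytarabine 1 µM, 1528, 1502 and 1568 CPM in cytarabine 0.5 µM, and 1245, 1250 and 1253 CPM in control. Its rise was 0.14 in cytarabine 1 µM (edgeR adjusted p = 4.36e-05) and 0.29 in cytarabine 0.5 µM (edgeR adjusted p = 2.83e-10). The FCGRT over B2M ratio in TPM was 0.0746 ± 0.00472, 0.0638 ± 0.00260, 0.0585 ± 0.00342 and 0.0444 ± 0.00101 in the treated groups in the same order, against 0.0101 ± 0.000668 in control (SD, n = 3 each). The light chain therefore stayed in large excess per length at every step. Each of the 4 comparisons of cytarabine with control and of FL-Fc-DM1 with cytarabine had an exact permutation p of 0.1, the smallest possible.

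Genes of IgG recycling and endosomes were followed as a list. Of 13 at the filter's level in control, 6 rose and 2 fell in cytarabine 1 µM (median 0.12), where 39.3% of all genes were called higher and 36.6% lower. In cytarabine 0.5 µM 9 rose and 0 fell (median 0.15), where 38.0% were called higher and 35.2% lower, and the median over all genes was 0.03 in each. IFI30, a lysosomal thiol reductase of antigen processing, rose by 3.72 and 3.41 in these comparisons, and the lysosomal membrane gene LAMP1 by 1.11 and 1.14. Of the 14 tested, FL-Fc-DM1 raised 6 and lowered 1 after 1 µM (median 0.07), where 23.5% of all genes were called higher, and raised 5 and lowered 0 after 0.5 µM (median 0.02), where 22.0% were. The recycling endosome gene EHD1 rose by 0.83 and 0.71 in these, and IFI30 by 0.76 and 0.83.

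TRIM21, the cytosolic Fc receptor, rose under cytarabine and was not called under FL-Fc-DM1. It had 38.4, 36.1 and 37.3 CPM in cytarabine 1 µM then FL-Fc-DM1, and 41.5, 41.5 and 36.6 CPM in cytarabine 0.5 µM then FL-Fc-DM1. It had 37.3, 37.0 and 34.6 CPM in cytarabine 1 µM, 38.8, 35.7 and 41.6 CPM in cytarabine 0.5 µM, and 19.4, 22.4 and 19.5 CPM in control. The 4 treated groups overlapped one another and none overlapped control. The rise was 0.83 ± 0.0786 in cytarabine 1 µM (0.67 to 0.99, edgeR adjusted p = 4.37e-10) and 0.93 ± 0.0783 in cytarabine 0.5 µM (0.76 to 1.09, edgeR adjusted p = 5.82e-11). FL-Fc-DM1 changed it by 0.04 in both, with intervals of −0.12 to 0.19 after 1 µM and −0.11 to 0.19 after 0.5 µM. A further change larger than 0.19 in either group thus lies outside those intervals.

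Partners of TRIM21 went both ways. Of 15 tested, 7 rose and 6 fell in cytarabine 1 µM against control (median 0.17), and 7 rose and 7 fell in cytarabine 0.5 µM (median 0.02), shares near those over all genes, which were 39.3% higher and 36.6% lower at 1 µM and 38.0% higher and 35.2% lower at 0.5 µM. UBE2W, the ubiquitin-conjugating enzyme that primes TRIM21, rose by 0.67 and 0.65 in these. UBE2N and UBE2V2, which extend its chains, fell, UBE2N with changes of −0.45 and −0.17 and UBE2V2 with −1.13 and −1.03. FL-Fc-DM1 raised UBE2N by 0.30 after 1 µM and by 0.29 after 0.5 µM, and VCP, the unfolding ATPase, by 0.39 and 0.42. In those comparisons 6 of the 15 rose and 3 fell after 1 µM (median 0.10), and 9 rose and 3 fell after 0.5 µM (median 0.20), where 23.5% and 22.0% of all genes were called higher. IRF5, a transcription factor that TRIM21 can mark for degradation, rose by 1.42 in cytarabine 1 µM and by 1.17 in cytarabine 0.5 µM.

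**Figure D4:**
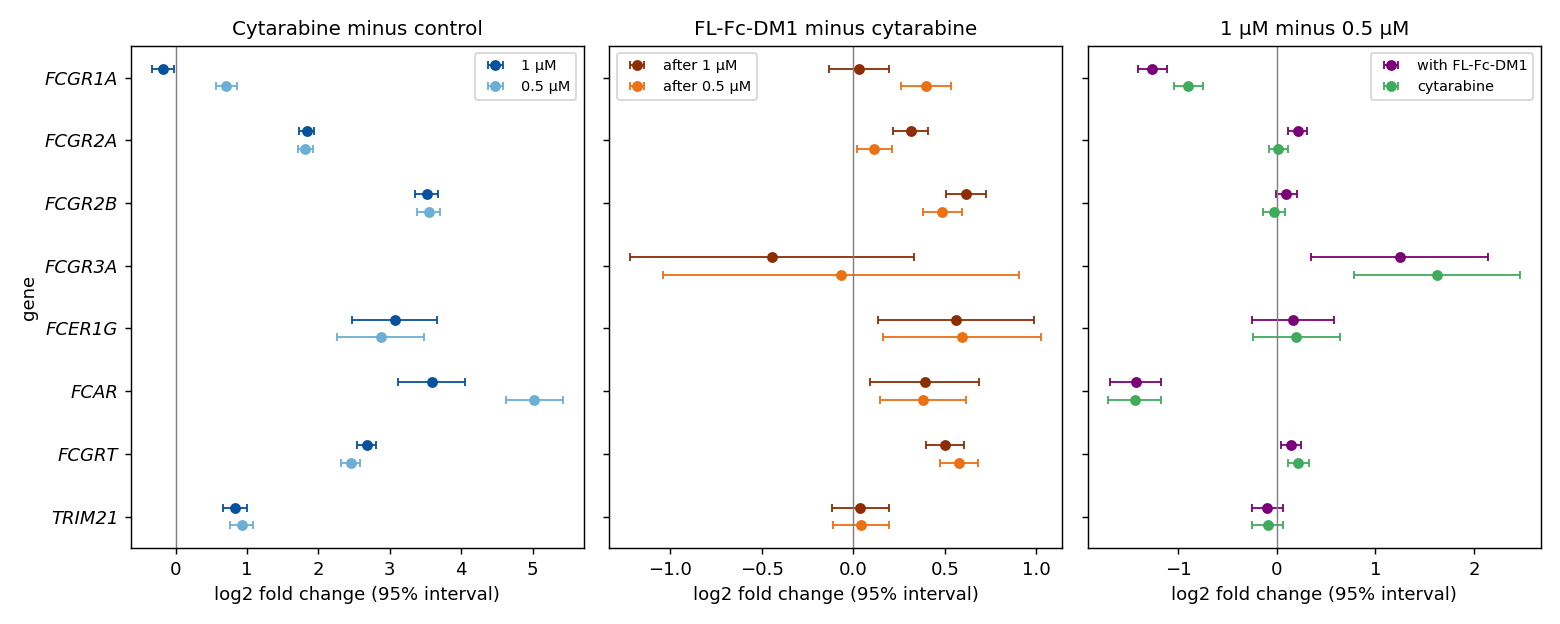
Log2 fold changes of the Fc receptor genes with 95% intervals, for cytarabine against control, FL-Fc-DM1 against cytarabine, and 1 µM against 0.5 µM, each on its own linear x axis. FCGR3A is left out of the panel against control because its control libraries hold 1 count. FCGR1A lies at −0.18 in cytarabine 1 µM and 0.71 in cytarabine 0.5 µM. In the panel against control the intervals of FCGR2A, FCGR2B, FCER1G, FCGRT and TRIM21 overlap between the doses. FCER1G and FCAR passed the filter through treated libraries, so their intervals in that panel are no test of a rise over control.

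Set against each other per length, the 8 genes changed rank. In control the order by mean TPM was FCGR1A (42.4 ± 1.64), FCGR2A (34.3 ± 0.248), FCGRT (24.8 ± 1.81), TRIM21 (19.5 ± 1.60), FCGR2B (5.69 ± 0.438), FCER1G (2.44 ± 0.804), FCAR (0.825 ± 0.493) and FCGR3A, with SD over 3 libraries. In every treated group FCGRT came first and FCGR2A second, and FCGR3A came last. FCGRT had 229.8 ± 7.57, 190.5 ± 8.07, 157 ± 9.17 and 131 ± 1.19 TPM in the treated groups in the same order, and FCGR2A had 145 ± 7.23, 124 ± 3.47, 117 ± 9.04 and 113 ± 5.53 TPM. FCGR2B had 103 ± 8.13, 93.7 ± 3.95, 68.5 ± 1.80 and 68.2 ± 1.30 TPM.

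The kinases that sit under activating Fc receptors did not move as one group, and the shares over all genes named above apply to each list. Of 29 tested genes of activating signalling, 12 rose and 12 fell in cytarabine 1 µM (median −0.00), and 12 rose and 11 fell in cytarabine 0.5 µM (median 0.07). SYK had 211, 194 and 205 CPM in cytarabine 1 µM then FL-Fc-DM1, 204, 210.0 and 208 CPM in cytarabine 0.5 µM then FL-Fc-DM1, 172, 162 and 162 CPM in cytarabine 1 µM, 165, 166 and 172 CPM in cytarabine 0.5 µM, and 105, 110.1 and 99.4 CPM in control. SYK thus rose by 0.66 in cytarabine 1 µM and by 0.68 in cytarabine 0.5 µM, and FL-Fc-DM1 added 0.30 after each dose. Among Src-family kinases FGR rose by 3.46 and 3.91 and LYN by 0.33 and 0.44 in the cytarabine comparisons, while FYN fell, with changes of −3.59 and −2.90. FL-Fc-DM1 raised 12 and lowered 4 of the 29 after 1 µM (median 0.12), and raised 14 and lowered 4 after 0.5 µM (median 0.09). LYN rose by 0.31 and 0.33 in these, and the change of FGR, 0.05 and 0.07, was not called.

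Of 12 genes of inhibitory signalling, 8 rose and 3 fell under cytarabine at each dose, with medians of 0.42 at 1 µM and 0.44 at 0.5 µM against 0.03 over all genes. Over all genes 39.3% rose and 36.6% fell at 1 µM, and 38.0% rose and 35.2% fell at 0.5 µM. INPP5D, the lipid phosphatase that FCGR2B recruits, was among those that fell. It had 238, 239 and 245 CPM in cytarabine 1 µM then FL-Fc-DM1, 216, 230.3 and 217 CPM in cytarabine 0.5 µM then FL-Fc-DM1, 229.8, 239.6 and 232 CPM in cytarabine 1 µM, 212, 206 and 222 CPM in cytarabine 0.5 µM, and 276, 270.5 and 279.8 CPM in control. The change was −0.24 in cytarabine 1 µM (edgeR adjusted p = 1.55e-06) and −0.37 in cytarabine 0.5 µM (edgeR adjusted p = 8.33e-10), the opposite direction to FCGR2B. PTPN6, a tyrosine phosphatase of ITIM receptors, rose by 0.65 and 0.67, and the adaptor DOK3 by 2.67 and 2.43. FL-Fc-DM1 raised 1 and lowered 2 of the 12 after 1 µM (median −0.04), and raised 3 and lowered 4 after 0.5 µM (median −0.05). Of 19 genes of phagocytosis and its actin machinery at the filter's level in control, 8 rose and 7 fell in cytarabine 1 µM (median 0.06), and 10 rose and 5 fell in cytarabine 0.5 µM (median 0.12). Of the 20 tested, FL-Fc-DM1 raised 11 and lowered 1 after each dose, with medians of 0.22 after 1 µM and 0.16 after 0.5 µM. Over all genes it raised 23.5% and lowered 22.2% after 1 µM, and raised 22.0% and lowered 22.8% after 0.5 µM. CFL1, which severs actin filaments, rose by 0.59 after 1 µM and by 0.44 after 0.5 µM, and ARPC1B, a subunit of the actin-branching Arp2/3 complex, by 0.54 and 0.46.

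Interferon-gamma is a textbook inducer of FCGR1A, and genes of that response were followed beside it. Of 13 at the filter's level in control, 11 rose and 1 fell in each cytarabine comparison, with medians of 0.77 at 1 µM and 0.52 at 0.5 µM against 0.03 over all genes, of which 39.3% and 38.0% were called higher. GBP2, a guanylate-binding protein of that response, rose by 5.02 in cytarabine 1 µM and by 4.89 in cytarabine 0.5 µM, and the related GBP4 was below the filter's level in all 3 control libraries. Of the 16 tested, FL-Fc-DM1 lowered 7 and raised 1 after 1 µM (median −0.14), where 22.2% of all genes were called lower, and lowered 10 and raised 2 after 0.5 µM (median −0.57), where 22.8% were. GBP2 changed by −1.33 and −1.56 and GBP4 by −1.55 and −1.65 in these, while FCGR1A had the 0.03 and 0.40 given above. Of the other Fc receptors, 19 genes were listed, 7 tested and 4 at the filter's level in control. Of those 4, 2 rose and 1 fell in cytarabine 1 µM (median 1.17), and 3 rose and 1 fell in cytarabine 0.5 µM (median 1.46). Over all genes 39.3% rose and 36.6% fell at 1 µM, and 38.0% rose and 35.2% fell at 0.5 µM. FCER2, the low-affinity IgE receptor, rose by 2.26 and 1.97, and FCMR, the IgM receptor, by 1.79 and 1.48. Of the 7, FL-Fc-DM1 raised 1 and lowered 1 after 1 µM (median 0.16), and raised 1, FCER2 by 0.77, after 0.5 µM (median 0.06). Over all genes it raised 23.5% and lowered 22.2% after 1 µM, and raised 22.0% and lowered 22.8% after 0.5 µM.

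FLT3, the gene of the receptor for FLT3 ligand, had 329, 309 and 330.3 CPM in cytarabine 1 µM then FL-Fc-DM1, 392, 384 and 383 CPM in cytarabine 0.5 µM then FL-Fc-DM1, 548, 541 and 533 CPM in cytarabine 1 µM, 591, 576 and 594 CPM in cytarabine 0.5 µM, and 397, 403 and 386 CPM in control. Every library of the cytarabine groups lay above control. FL-Fc-DM1 after 0.5 µM overlapped control, and FL-Fc-DM1 after 1 µM lay below it. Against its cytarabine group FLT3 was lower with FL-Fc-DM1, with changes of −0.74 after 1 µM (edgeR adjusted p = 1.83e-15) and −0.60 after 0.5 µM (edgeR adjusted p = 7.96e-14). The withdrawal of cytarabine is part of these changes. In the same comparisons 0 of the 8 Fc receptor genes were called lower, where 22.2% of all genes were after 1 µM and 22.8% after 0.5 µM.

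Across the 15 libraries, which share 5 group means, the pattern of each receptor was compared by Pearson's r of log2 CPM with 11468 genes. The closest to FCGR1A were SLC35B2 (r = 0.974), AIF1 (0.951) and MLKL (0.928). The closest to FCGR2A were FTL, FAH and CSF1R (0.997 each), to FCGR2B FTL (0.998), CD74 (0.997) and CD36 (0.997), and to FCGRT IFI30 (0.999), MGST1 (0.999) and ITGB7 (0.998). For FCAR they were RAB32 (0.991), CPD (0.987) and SIRPB2 (0.985), for FCER1G LGALS3 (0.983), CXCL8 (0.982) and VIT (0.980), for TRIM21 TRGC1 (0.988), CTSZ (0.985) and NADK (0.983), and for FCGR3A DGKH (0.976), ZNF124 (0.973) and BTBD7 (0.972). Within the 8, FCGR2B and FCGRT were most alike (r = 0.995). FCGR1A stood apart, with r from −0.09 with FCGR3A to 0.58 with FCAR. These values describe likeness across 5 groups only.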

How the data were processed

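Per the labels' protocols, RNA of Molm-13 cells was extracted with Trizol, captured on oligo(dT) beads, fragmented, copied with random primers, PCR-amplified and read on an Illumina machine. Tools listed, without role or order, per the submitters' processing notes, are StringTie 1.3.1, fastp 0.18.0, HISAT2, edgeR and DESeq2. Counter, strand setting, annotation and genome build of the table: not given in the sources used here.

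Estimated counts per gene were used as deposited by the authors, with 9.89% to 11.6% of values per library not whole, and were rounded before testing. The authors' deposited TPM values served for levels between genes and for ratios. Low genes were removed with edgeR's filterByExpr (by group, minimum count 10, minimum total 15). TMM-scaled counts of all 15 libraries were fitted once with edgeR 4.0.16 (R 4.3.3, limma 3.58.1), quasi-likelihood, 5 group means, 10 residual degrees of freedom, with Benjamini-Hochberg adjustment over 12356 genes. CPM use TMM-scaled library sizes. The test was checked on simulated counts in which few genes changed. That check does not cover the cytarabine comparisons, where most genes were called. Alternatives were DESeq2 size factors, no low-count filter, DESeq2 1.42.0, limma on log2(TPM + 0.1), limma voom with a spread per group, only the groups compared, a replicate block, each library left out, and an adjusted p under 0.01. The sum of FCGR2A and FCGR2B was added after seeing the data.

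The 8 genes and the gene lists were chosen with earlier results of these data known. Named besides the 8 were their near-identical copies, B2M, TYROBP, SYK, LYN, FGR, PTPN6, INPP5D, UBE2N, FLT3, of each list up to 2 called genes with the largest rise and fall at 10 CPM or more, and the 3 genes most like each receptor. A gene so named in a comparison may be given in others, and some genes so selected are not reported here. H2BC18 was named after its overlap was seen. Promoter sequences are from RefSeq (GRCh38.p14).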

Additional observations from a re-analysis of the deposited data

Results flagged for a closer look

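FCGR1A was marked because cytarabine moved it in opposite directions at the doses used, and the difference between the doses passed its own test. Relative to control it was −0.18 in cytarabine 1 µM and 0.71 in cytarabine 0.5 µM, both called, and the difference of 1 µM minus 0.5 µM was −0.90 (edgeR adjusted p = 1.10e-09). The rise at 0.5 µM and the difference between doses kept their calls in every alternative run. The small fall at 1 µM did not, and its cause was not tested.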

How the results depend on the processing

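The log2 changes of the 8 genes were recomputed in 1064 combinations of change and alternative. Of these, 979 kept direction and side of the threshold, 45 kept direction but lost the call, 7 gained one and 33 changed sign, none of the last being a called change. The 979 include all alternatives for FCGR3A, FCER1G and FCAR against control. These genes passed the filter through treated libraries, so that part of the count says nothing about how firm their rises are. Members called in FL-Fc-DM1 after 0.5 µM against cytarabine 0.5 µM numbered 3 with limma on TPM, against 6. Over all 12356 genes limma on TPM called 4177 there, against 5527, so calls were lost beyond the members too. For the other counts of members in this paragraph the calls over all genes are not given, so they do not single out these genes. After 1 µM they numbered 3, against 5, with limma on TPM, with voom, with only the groups compared and at an adjusted p under 0.01. Between the FL-Fc-DM1 groups they numbered 3 at an adjusted p under 0.01 and 3 to 5 with 1 library left out, against 5. For the test of that change between doses they numbered 1 with DESeq2 size factors, with no low-count filter and with DESeq2, and 0 to 1 with 1 library left out, against 0.

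Changes of sign were all near 0. For FCGR3A in FL-Fc-DM1 after 0.5 µM, limma on TPM gave 0.22, voom 0.0374, and leaving out 1 library −0.36 to 0.15. Leaving out 1 library gave −0.0496 to 0.0985 for FCGR1A in FL-Fc-DM1 after 1 µM, −0.0157 to 0.0648 for FCGR2A between cytarabine doses and −0.0393 to 0.32 for FCER1G between FL-Fc-DM1 groups. Limma on TPM gave 0.0059 for FCGR2B between cytarabine doses. For that test between doses, limma on TPM gave 0.0039 for FCER1G, −0.16 for FCAR, 0.0099 for FCGRT and 0.0365 for TRIM21. For FCAR, voom gave −0.0049 and only the groups compared −0.013. With 1 library left out it ran from −0.26 to 0.12 for FCER1G, −0.10 to 0.17 for FCAR and −0.0655 to 0.0507 for TRIM21.

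Calls were also lost. With limma on TPM the adjusted p was 0.173 for FCGR1A in cytarabine 1 µM against control (−0.11), 0.0735 for FCER1G and 0.780 for FCAR in FL-Fc-DM1 after 1 µM, 0.0843 for FCGR2A, 0.0799 for FCER1G and 0.534 for FCAR after 0.5 µM, and 0.112 for FCGR3A between FL-Fc-DM1 groups. With voom it was 0.0591 for FCER1G and 0.118 for FCAR after 1 µM, and 0.0747 for FCGR3A between FL-Fc-DM1 groups. With only the groups compared it was 0.0583 for FCER1G and 0.115 for FCAR after 1 µM, and 0.0610 for FCGRT between FL-Fc-DM1 groups. The causes were not tested. Fitting only the groups compared left FCGR3A untested in cytarabine 0.5 µM against control. The replicate number as a block called 5 members in FL-Fc-DM1 after 0.5 µM against 6, FCGR2A being lost (0.11, edgeR adjusted p = 0.0534). Over all genes that block called 5596, against 5527. Libraries of the same number showed little shared deviation (r from −0.06 to 0.08), which does not settle whether the numbers pair them. Few counts limit FCGR3A, FCER1G and FCAR.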
